A study of Saccharomyces cerevisiae with 21 samples.

Results

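Ribosome biogenesis genes encode the nucleolar factors that process precursor rRNA and assemble the ribosomal subunits. The members described here were chosen by a fixed list of systematic names covering the NOP, DBP, RRP, UTP, MAK, SPB and IMP families and their partners. The list held 60 of the 6692 genes in the deposited Saccharomyces cerevisiae table, and all 60 were expressed well enough to be tested. In budding yeast, RNA polymerase I makes the large rRNA precursor in the nucleolus. Small nucleolar ribonucleoproteins (snoRNPs) of the box C/D and box H/ACA classes guide its methylation and pseudouridylation, the small-subunit processome folds and cleaves its 5′ part, and RNA helicases, GTPases and assembly factors build the precursors of both subunits. In growing cells these genes are regulated together with the ribosomal protein genes, but their promoters typically carry different elements. PAC and RRPE boxes are typical of ribosome biogenesis genes, whereas the general regulatory factor Rap1 binds most ribosomal protein promoters.

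Polyadenylated RNA was sequenced in 21 libraries, 3 labelled biological replicates in each of 7 groups, to ask what the loss of the chromatin remodeller RSC, of Rap1, or of both does to transcription. Sth1 is the catalytic ATPase subunit of RSC. In auxin-inducible degron (AID) strains, indole-3-acetic acid (IAA) makes the plant F-box protein osTIR1 target an IAA7-tagged protein for degradation. In the strain with both tags, STH1-AID RAP1-AID, which is called the double degron below, both proteins are targeted. Each of the 3 degron strains was treated with 500 µM IAA for 2 h or, as its control, with the solvent DMSO. An untreated wild type (WT) was the remaining group. All strains were BY4741 derivatives (MATa his3 leu2 met15 ura3) with a 3xFLAG tag on the RNA polymerase II subunit Rpb3. The degron strains also carried osTIR1 under the GPD1 promoter at LEU2 and V5-IAA7 tags on Sth1, on Rap1 or on both proteins. The WT strain carried neither tag nor osTIR1. No untagged cells were treated with IAA, so IAA itself and the loss of the tagged protein cannot be told apart. Likewise, the tags, osTIR1 and DMSO cannot be told apart between degron strains in DMSO and WT. Because the degron acts on the protein, mRNA of the tagged genes does not check depletion. Normalised counts of STH1 were 10758 to 16483 in STH1-AID cells with IAA against 9628 to 18829 with DMSO. Those of RAP1 were 5830 to 6339 in RAP1-AID cells with IAA against 5192 to 6455 with DMSO.

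Schizosaccharomyces pombe cells were added to every cell pellet as a spike-in, in fixed units of optical density, and the deposited tables give raw read counts per gene for both species. Libraries held 20901972 to 29090954 S. cerevisiae and 1144357 to 3486097 S. pombe counts, and the members had between 581 and 46142 counts each per library, so that counting error was small beside replicate spread. Each count was divided by a size factor computed from the S. pombe counts, and the result is called the normalised count. Levels are normalised counts per kilobase (kb) of gene. Less mRNA per cell and fewer S. cerevisiae cells relative to the spike-in cannot be told apart. The same genes were also fitted with TMM scaling, which uses the S. cerevisiae counts alone and sets the typical gene near no change. S. cerevisiae counts per S. pombe count were 8.14, 12.0 and 10.1 in STH1-AID cells with IAA, against 11.8, 12.3 and 22.2 with DMSO. In RAP1-AID cells this ratio was 12.7, 12.4 and 12.9 with IAA, against 16.4, 16 and 21.2 with DMSO. In double-degron cells it was 7.10, 9.20 and 8.01 with IAA, against 18.1, 10.5 and 8.28 with DMSO, and in WT it was 10.6, 17.5 and 14.3. The third DMSO replicate of STH1-AID and the first of the double degron therefore stood well above the other replicates of their groups, and the counts and medians of members in those strains are also given without them. A gene was called changed when the Benjamini-Hochberg adjusted p of edgeR's quasi-likelihood test over all 6254 genes tested was under 0.05 and the log2 fold change was over 1 in either direction. Fold changes are IAA over DMSO on the log2 scale, with the standard error (SE) of the fit.

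The promoters of the members carried the letters of both elements much more often than those of other genes. In the 500 bases before the start codon, on either strand, the PAC letters CGATGAG occurred in 41 of the 60 members (68.3%), in 2.92% of 137 ribosomal protein genes and in 9.48% of all genes tested. The RRPE letters GAAAAATTT occurred in 37 members (61.7%), in 8.76% of ribosomal protein genes and in 8.03% of all genes tested. Both were present in 23 members and neither in 5, which were DBP9, NOP10, RRP9, RRP15 and TIF6. Counted from the start codon, the nearest PAC match began at a median position of -126 and the nearest RRPE match at -140. The Rap1-type letters CACCCNNAC were found in 4 members (6.67%), RLP24, NOG2, UTP20 and RRP14, against 24.1% of ribosomal protein genes and 4.14% of all genes. The Reb1-type letters TTACCCG occurred in 10 members (16.7%) and in 9.87% of all genes, and the RSC-type letters CGCGC occurred in 5 members (8.33%), in 29.2% of ribosomal protein genes and in 19.4% of all genes. PAC and RSC letters overlapped in 1 member, RRP12. The window ran past the next gene model in 46 members. A match is a description of the sequence and was not shown to be bound. Rap1 binds most ribosomal protein promoters, yet its letters were found in only 24.1% of them. The absence of these letters therefore does not show the absence of a site.

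The windows below are shown because 11 members were called lower after IAA in STH1-AID cells under both scalings, and 10 of those 11 held a PAC match. They were grouped after their values were seen, and no test is given for the group. Each line gives the gene, its window in genome build R64 and strand, and the sequence 5′ to 3′ on the strand of the gene, with 10 bases on each side of the match nearest the start codon. Capitals mark the PAC letters, on either strand.
DBP10, chrIV:394071-394097, plus strand: aattttcaagCGATGAGatgaaattca
MAK5, chrII:528187-528213, plus strand: acttttccagCGATGAGcttataagaa
RRP1, chrIV:618410-618436, minus strand: aaaaaaaatgCGATGAGctgaaaaaaa
DBP3, chrVII:361986-362012, minus strand: aatttttcacCTCATCGcataagaagc
UTP7, chrV:326046-326072, minus strand: attttctaagCGATGAGttcgtgaaaa
UTP10, chrX:217394-217420, minus strand: tttcagttagCGATGAGctagatattt
NOP8, chrXV:52988-53014, plus strand: aagaattgagCGATGAGctaaaatgtc
IMP3, chrVIII:393442-393468, plus strand: ctgatataagCTCATCGcaacaaaaat
RRP8, chrIV:611975-612001, plus strand: aaaaattttgCGATGAGctcaaaataa
DBP8, chrVIII:442034-442060, plus strand: aaatttttacCTCATCGcggattgtaa

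SPB4 was the member of this group with no PAC match, and its RRPE letters are shown on the next line in capitals.
SPB4, chrVI:147018-147046, minus strand: tcgctttcaaAAATTTTTCactgaaaaac
The PAC matches of the 10 genes began between 82 and 143 bases before the start codon. The PAC share was 31 of 49 (63.3%) in the other members. The RRPE letters occurred in 4 of the 11 genes (36.4%) and in 33 of the 49 others (67.3%). The Rap1-type and RSC-type letters occurred in none of the 11 promoters, beside 4.14% and 19.4% of all genes, and 11 promoters are too few to read much from this. The paper links A-tracks and the wider motif CG(C/G)G to RSC recruitment, and these were not counted. Of the 11 genes, 5 were arranged head-to-head with their upstream neighbour, as were 24 of the 49 others.

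**Figure D1:**
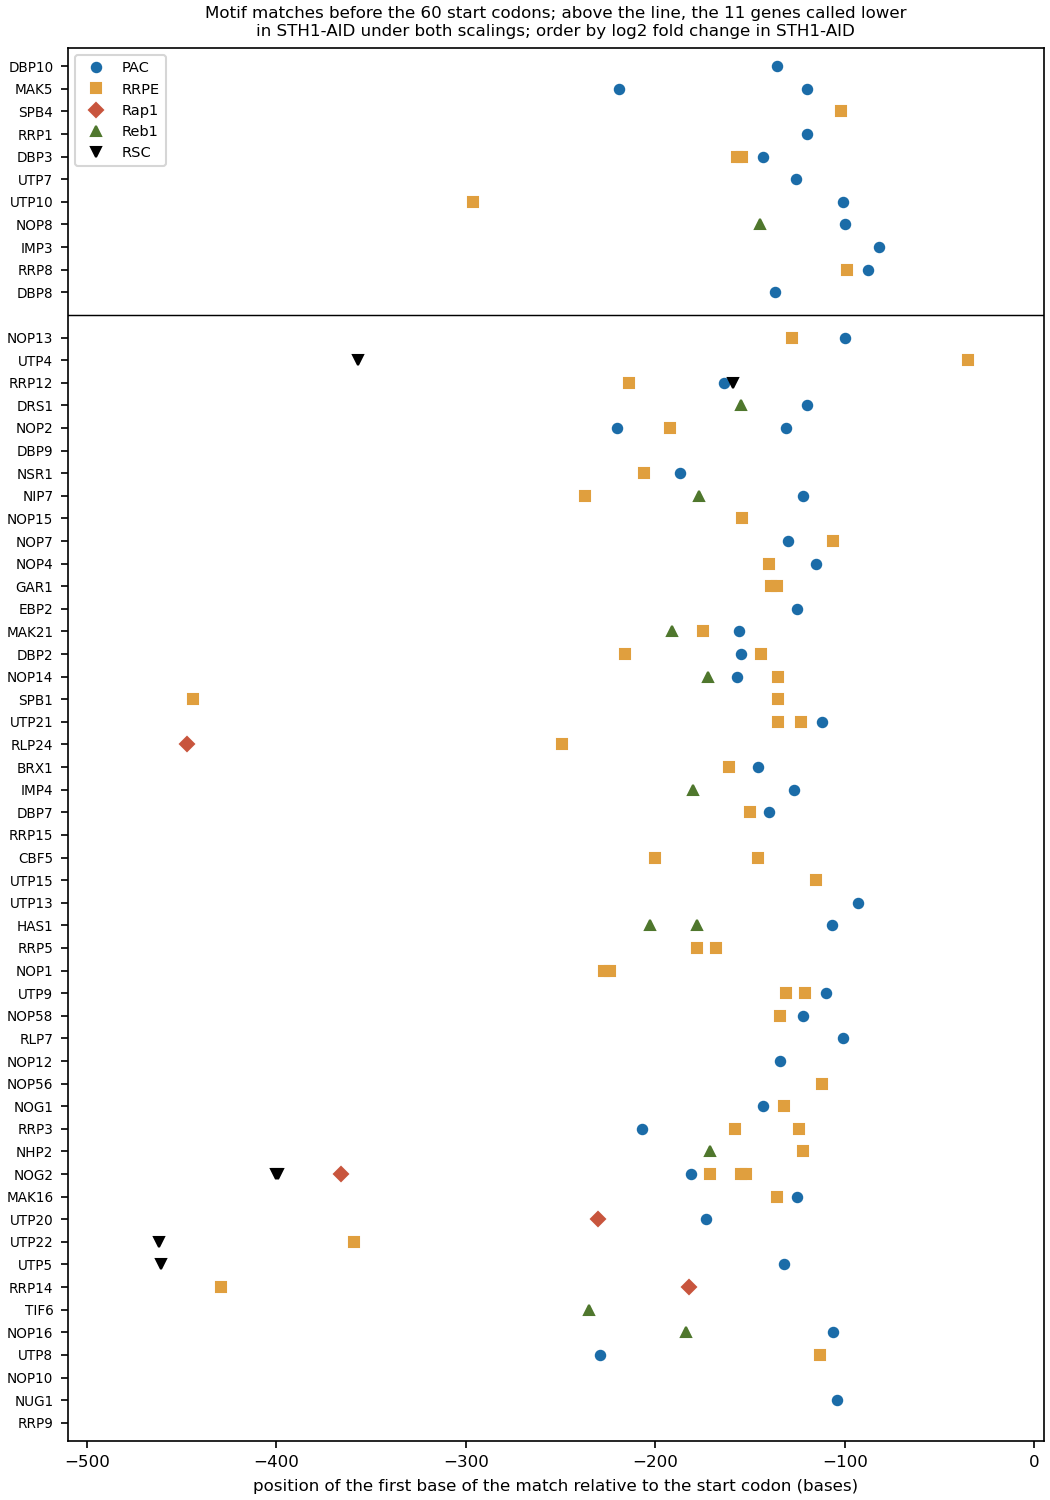
First base of each motif match relative to the start codon (bases, horizontal axis) in the 60 members, 1 row per member in the order of their fold change in STH1-AID cells, with the 11 members called lower under both scalings above the line. PAC (circles) and RRPE (squares) matches crowd around positions -126 and -140, and 4 members have a Rap1-type match (diamonds).

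The level of the members relative to the typical gene differed little on average between IAA and DMSO, by 0.11, -0.09 and 0.23 log2 units across STH1-AID, RAP1-AID and double-degron cells. The median member lay above the median gene by 2.53 ± 0.16 log2 units per kb in STH1-AID cells with IAA and by 2.42 ± 0.14 with DMSO. This gap was 2.58 ± 0.04 with IAA and 2.67 ± 0.04 with DMSO in RAP1-AID cells, 2.64 ± 0.33 with IAA and 2.41 ± 0.29 with DMSO in double-degron cells, and 2.53 ± 0.17 in WT (SD, n = 3 each). In both strains with STH1-AID the mean difference was smaller than the SD of the replicates, and the IAA and DMSO groups overlapped. In the double degron, however, same-numbered libraries deviated together, and within each number the gap was larger with IAA, at 2.98 against 2.65, 2.63 against 2.48 and 2.31 against 2.08 (differences of 0.32, 0.15 and 0.23). Taken by number, the gap was also larger with IAA in STH1-AID cells, by 0.046, 0.14 and 0.13, though numbers were not taken as pairs there. In RAP1-AID cells the IAA libraries (2.56, 2.55 and 2.63) all lay below the DMSO libraries (2.65, 2.65 and 2.72). These gaps do not depend on how the libraries were scaled.

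Against ribosomal protein genes the picture differed by strain. The median member minus the median ribosomal protein gene, in log2 units per kb, was -2.65, -2.45 and -2.23 in STH1-AID cells with IAA, against -2.58, -2.48 and -2.33 with DMSO. In RAP1-AID cells it was -0.21, -0.35 and -0.35 with IAA, against -1.95, -2.03 and -2.0 with DMSO. In double-degron cells it was -0.48, -0.85 and -1.37 with IAA, against -1.96, -2.05 and -2.39 with DMSO. Thus no IAA library overlapped a DMSO library in the strains with RAP1-AID, while the STH1-AID groups overlapped. The 60 members made up 1.83% of S. cerevisiae counts in STH1-AID cells with IAA and 2.38% with DMSO, 3.29% with IAA and 3.11% with DMSO in RAP1-AID cells, and 2.84% with IAA and 2.79% with DMSO in double-degron cells, on average. Ribosomal protein genes made up 11.3% with IAA and 14.8% with DMSO in STH1-AID cells, 5.89% with IAA and 13.8% with DMSO in RAP1-AID cells, and 6.72% with IAA and 13.3% with DMSO in double-degron cells. Many ribosomal protein genes have a near-identical paralog that shares reads, so they are used here only as a list.

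**Figure D2:**
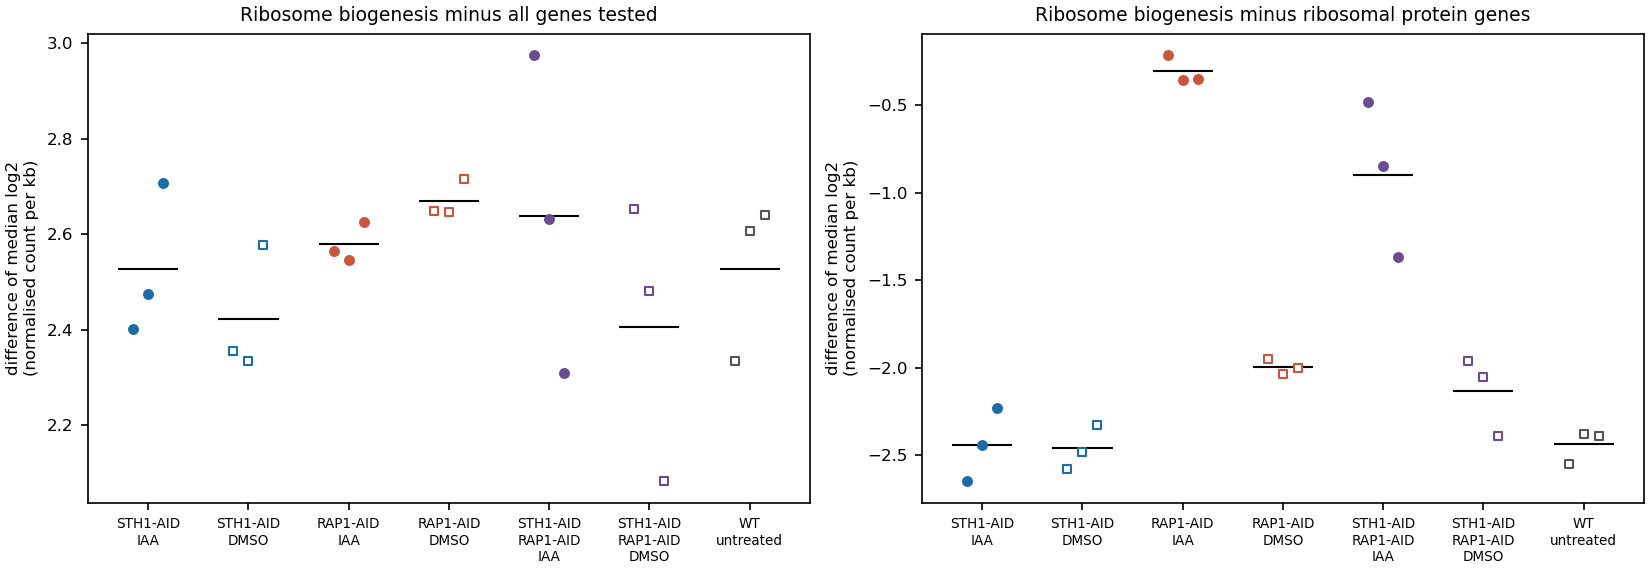
Median level of the members minus that of all genes tested, and minus that of ribosomal protein genes (log2 normalised count per kb, vertical axes), 1 point per library with a line at each group mean. Relative to ribosomal protein genes the RAP1-AID libraries lie between -0.35 and -0.21 with IAA and between -2.03 and -1.95 with DMSO, while relative to all genes the treatments overlap in both strains with STH1-AID.

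Levels among the members spanned a wide range. In WT the most abundant per kb were NOP1 (35688), NOP10 (32562), NSR1 (23248), NOP56 (21795), NHP2 (20073) and GAR1 (17771), mostly proteins of the snoRNPs. The least abundant per kb were UTP20 (1630), SPB4 (2075), DBP7 (2120) and DBP8 (2270). The 11 genes of the group above had a median WT level of 4262 per kb, and the other 49 members one of 7315.

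After IAA in STH1-AID cells, members were called lower about as often as genes in general, and they differed widely among themselves. By edgeR 26 of 60 members were called lower and 0 higher, beside 42.7% of all genes tested called lower and 4.69% called higher. No member had a positive fold change at an unadjusted p under 0.05, and DESeq2 also called 26 lower and 0 higher. With no limit on the fold, 47 members were lower, beside 55.4% of all genes. The median member changed by -0.90 (range -3.11 to -0.34), the median gene by -0.84 and the median of the 137 ribosomal protein genes by -1.0, of which 70 were called lower. Without the third DMSO replicate the median was -0.51 for members and -0.51 for all genes, and over the libraries left out the member median ranged from -1.09 to -0.51. The count fell to 15 members when the third DMSO replicate was left out and to 16 without the first IAA replicate. In 15 of the 26 members the call was made whichever library was left out.

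TMM scaling moved the median gene to 0.05 and the median member to 0.02. On that scale 11 members were called lower and 0 higher, beside 15.4% of all genes called in each direction. With no limit on the fold, 11 members were higher and 16 lower, beside 39.9% and 37.5% of all genes. The 11 called lower on that scale were the genes shown above, and they were set apart by the limit on fold, since 5 of the other 49 members were also below the typical gene at an adjusted p under 0.05. With spike-in scaling the fold changes of the 11 ran from -3.11 to -1.96 (median -2.19) and those of the other 49 from -1.83 to -0.34 (median -0.80), with no wide gap between them. With that scaling all 11 calls were made whichever library was left out, and no library was left out under TMM scaling.

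RNA helicases, which remodel RNA duplexes in pre-ribosomes, had 8 of 11 genes called lower, with a median fold change of -1.43 and 5 calls under TMM scaling. For this and the other role classes, the shares of all genes called lower were 42.7% with spike-in and 15.4% with TMM scaling. The classes are small and were not tested against each other. DBP10 (YDL031W, chrIV:394217-397204, plus strand), a DEAD-box helicase needed for large-subunit assembly, had the lowest fold change of all members. Its normalised counts were 1439, 2098 and 2116 in STH1-AID cells with IAA, against 11826, 12680 and 24179 with DMSO. Every IAA library lay far below every DMSO library. The log2 fold change was -3.11 ± 0.35 (SE), or 11.6% of the DMSO level, with an edgeR adjusted p of 1.92e-17, and it was -2.19 ± 0.12 under TMM scaling (adjusted p 2.44e-12).

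MAK5 (YBR142W, chrII:528317-530638, plus strand), another DEAD-box helicase of the large subunit, had 1024, 1613 and 1697 normalised counts with IAA, against 7141, 7508 and 14704 with DMSO. Its fold change was -2.76 ± 0.34 (edgeR adjusted p 1.39e-14). SPB4 (YFL002C, chrVI:145114-146934, minus strand), a further helicase of this kind, had 541, 849 and 806 with IAA, against 2743, 3088 and 5537 with DMSO, a fold change of -2.37 ± 0.33 (edgeR adjusted p 5.96e-12). In all 3 genes the IAA libraries lay apart from the DMSO libraries. The median of all genes tested did so too, at 8.69, 9.29 and 9.08 log2 units per kb with IAA, against 9.82, 9.94 and 10.6 with DMSO. Such separation was therefore not particular to these genes, and the share of all genes that showed it was not counted. HAS1 (YMR290C), the helicase with the highest level per kb, was not called, with 7053, 10582 and 11306 with IAA, against 11638, 12483 and 25317 with DMSO (-0.77, and 0.15 under TMM scaling).

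Among large-subunit assembly factors 8 of 17 were called lower, beside 42.7% of all genes, with a median of -0.91. RRP1 (YDR087C), which acts in early large-subunit maturation, and NOP8 (YOL144W) were the lowest at -2.31 and -2.14, and they were the only ones of the 17 called under TMM scaling. RRP1 had 662, 956 and 1173 normalised counts with IAA, against 3373, 3666 and 6836 with DMSO. RLP24 (YLR009W), the most abundant of these genes per kb over all libraries and a placeholder for a ribosomal protein in pre-ribosomes, was not called at -0.91, and it was called when the first or second DMSO replicate (-1.11 and -1.07) or the third IAA replicate (-1.05) was left out. Under TMM scaling RLP24 was at 0.02.

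The small-subunit processome had 4 of 16 members called lower, beside 42.7% of all genes, and a median of -0.79. UTP7 (YER082C), UTP10 (YJL109C) and IMP3 (YHR148W) were at -2.19, -2.17 and -2.08 and were also called under TMM scaling, while UTP4 (YDR324C) was at -1.60. Normalised counts of IMP3, a protein of the U3 snoRNP, were 463, 702 and 779 with IAA, against 2013, 2127 and 4058 with DMSO. RRP9 (YPR137W, chrXVI:802359-804080, plus strand), another U3 snoRNP protein, had the smallest change of all members. It had 4020, 6094 and 5919 normalised counts with IAA, against 5243, 5465 and 9627 with DMSO, so that the groups overlapped. Its fold change was -0.34 ± 0.32 (edgeR adjusted p 0.353), and it lay above the typical gene under TMM scaling (0.55, adjusted p 1.49e-05). Genes of the same complex therefore differed. NOP14 (YDL148C), the most abundant of these factors per kb, was at -0.97 and not called, though it was called without the first or second DMSO replicate (-1.15 and -1.09) or the second or the third IAA replicate (-1.10 and -1.03).

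The abundant snoRNP genes were little called. None of the 3 box C/D genes was called (median -0.73), and NOP1 (YDL014W), the rRNA methyltransferase fibrillarin, had 16290, 23900 and 23316 normalised counts with IAA, against 25816, 27430 and 52478 with DMSO. Its fold change of -0.74 had an edgeR adjusted p of 0.0351 but was under the limit on fold. Among the 4 box H/ACA genes, GAR1 (YHR089C) was called lower at -1.05, and NOP10 (YHR072W-A), a small subunit of the pseudouridine synthase complex, was at -0.52 (edgeR adjusted p 0.147). None of the 3 GTPases was called, with a median of -0.66. NOG1 (YPL093W) was at -0.69, and NUG1 (YER006W), needed for export of the large subunit, was at -0.43, the second smallest change of the members. Under TMM scaling the medians were positive, at 0.19 for box C/D, 0.15 for box H/ACA and 0.23 for GTPase genes.

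Of the rRNA methyltransferases 2 of 3 were called. RRP8 (YDR083W) was lowest at -2.03, and NOP2 (YNL061W) had 5983, 9078 and 9760 normalised counts with IAA, against 13388, 14987 and 28475 with DMSO, a fold change of -1.20 (edgeR adjusted p 0.000576). NOP2 was not called without the third DMSO replicate (-0.78), and RRP8 was the only one called under TMM scaling. The remaining 3 nucleolar factors, NOP13, RRP12 and NSR1, were all called lower, at -1.83, -1.48 and -1.15. None of them was called under TMM scaling, and NSR1 lost its call without the third DMSO replicate (-0.63) or the first IAA replicate (-0.96).

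**Figure D3:**
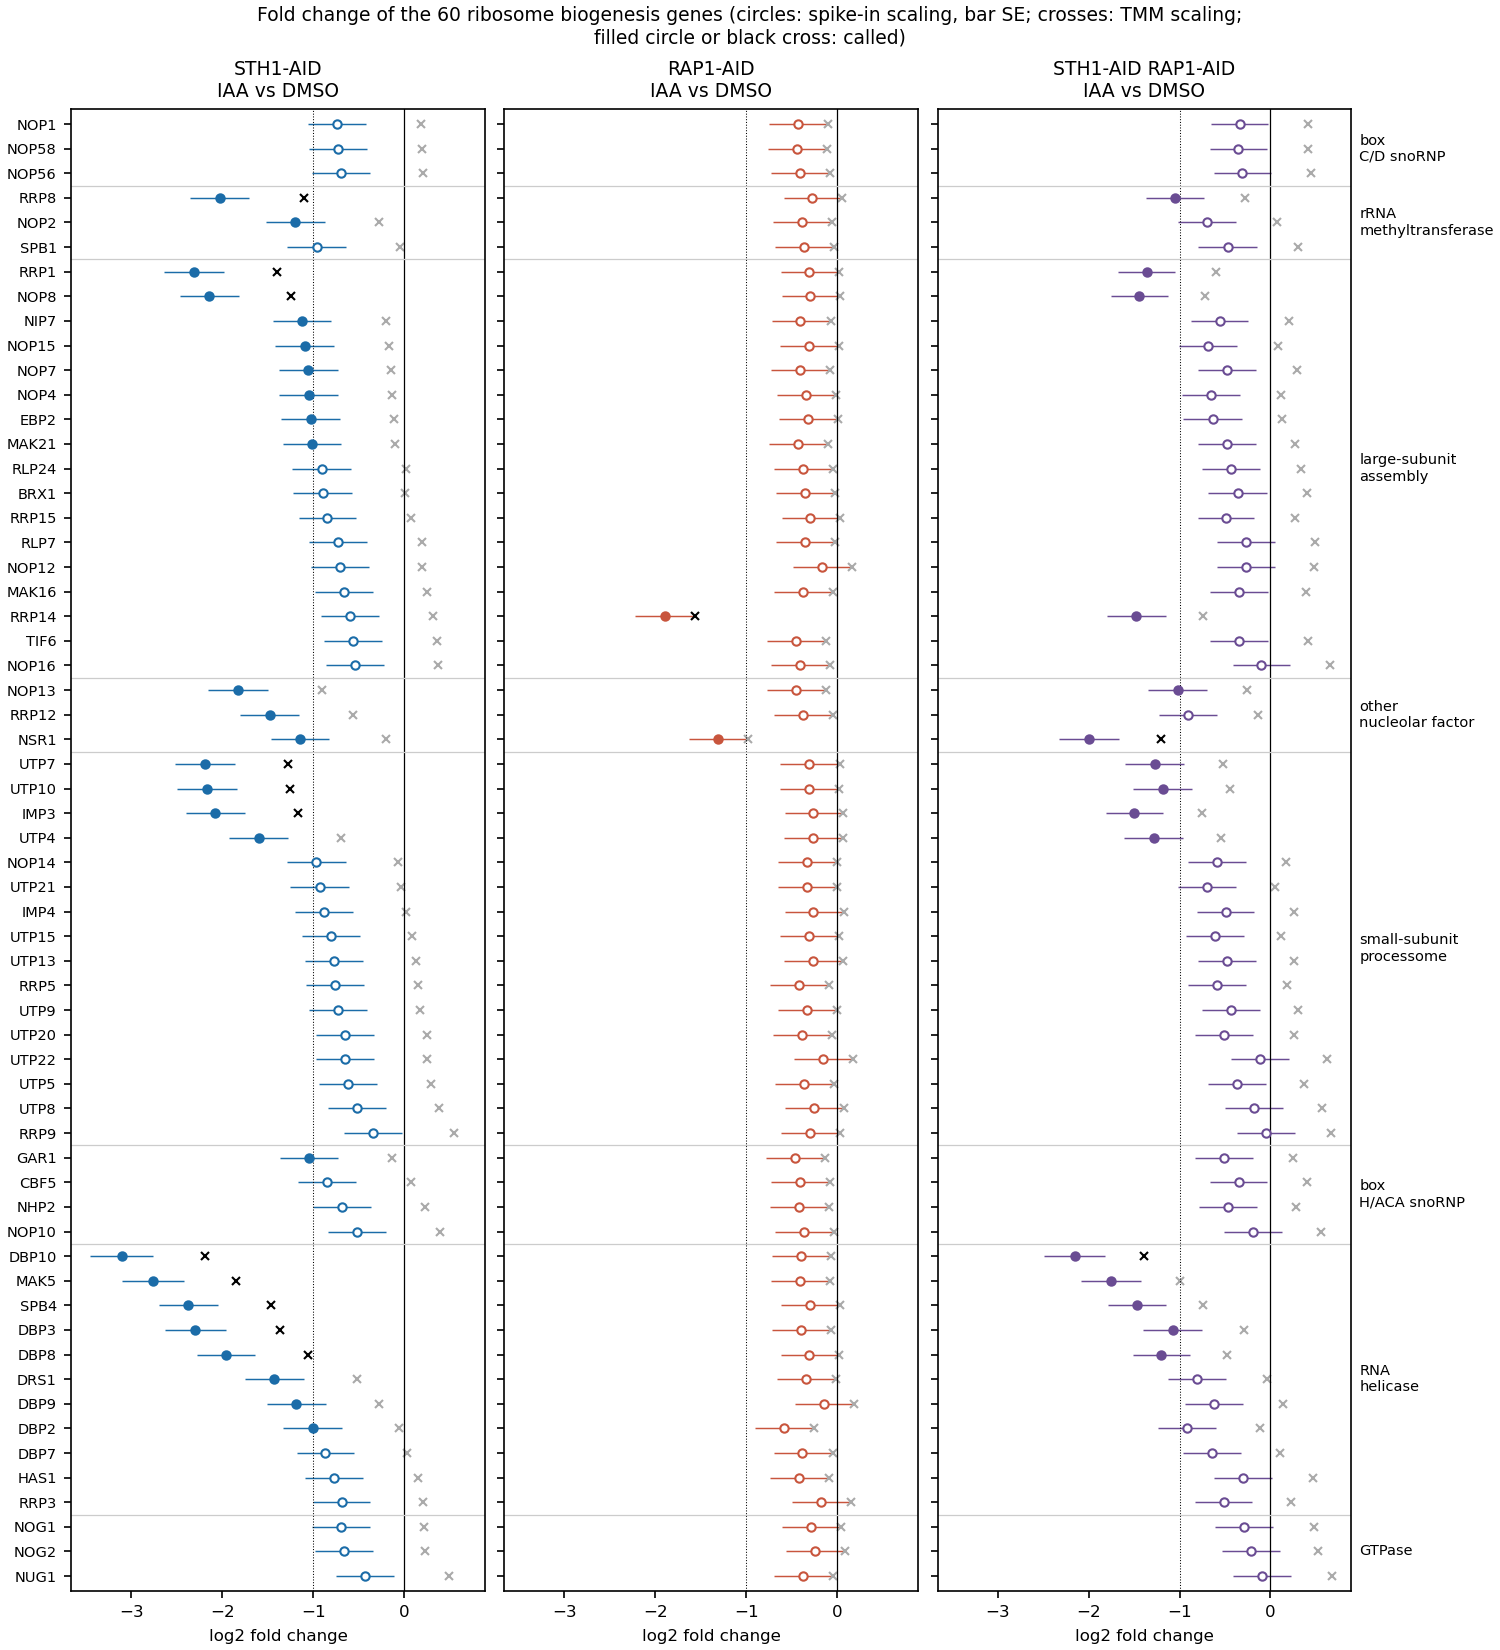
Log2 fold change of each of the 60 members (IAA over DMSO, horizontal axes) in the 3 strains, grouped by role, with circles and SE bars for spike-in scaling and crosses for TMM scaling, filled circles and black crosses marking calls. Helicases hold the lowest values in STH1-AID cells, down to -3.11 for DBP10, and RRP14 at -1.89 and NSR1 at -1.31 stand apart from the other members in RAP1-AID cells.

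After IAA in RAP1-AID cells few members moved, and the ribosomal protein genes did. By edgeR 2 members, RRP14 and NSR1, were called lower and 0 higher, beside 4.09% of all genes tested called lower and 0.4% called higher. With no limit on the fold the count was again 2, beside 4.38% of all genes. No member was higher at an unadjusted p under 0.05, and DESeq2 called 1 lower and 0 higher. The median member changed by -0.36 (-0.44 to -0.20 over the libraries left out), the median gene by -0.26 and the median ribosomal protein gene by -1.91, and 128 of the 137 ribosomal protein genes were called lower. Under TMM scaling the median gene was at 0.07, the median member at -0.03 and the median ribosomal protein gene at -1.58. On that scale 1 member and 111 ribosomal protein genes were called lower, beside 3.07% of all genes called lower and 0.991% called higher. With no limit on the fold, 0 members were higher and 2 lower, beside 10.1% and 6.35% of all genes.

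RRP14 (YKL082C, chrXI:281025-282329, minus strand), a nucleolar protein needed for the synthesis of both subunits, had the lowest fold change. Its normalised counts were 4109, 3638 and 3887 in RAP1-AID cells with IAA, against 13130, 12898 and 17189 with DMSO. Every IAA library lay below every DMSO library. The median of all genes tested did so too, at 10.33, 10.29 and 10.32 log2 units per kb with IAA, against 10.47, 10.42 and 10.79 with DMSO. The fold change was -1.89 ± 0.33 (edgeR adjusted p 5.01e-07), or 26.9% of the DMSO level, and -1.56 ± 0.08 under TMM scaling (adjusted p 1.18e-11). RRP14 was the only member called in this strain under both scalings and by DESeq2, and it was called whichever library was left out. It was also 1 of the 4 members with Rap1-type letters, which are shown here in capitals with 10 bases on each side.
RRP14, chrXI:282493-282521, minus strand: taaaaagtttCACCCAGACaccaaattga
The match began 182 bases before the start codon. RRP14 is head-to-head with TEF4 (YKL081W), a gene for translation elongation factor eEF1B gamma, across 561 bases, so that the 2 genes share the region. TEF4 changed by -0.77 in RAP1-AID cells (edgeR adjusted p 0.235; -0.44 and 0.000567 under TMM scaling). The other 3 members with Rap1-type letters were not called in RAP1-AID cells.

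NSR1 (YGR159C, chrVII:806412-807656, minus strand), the yeast nucleolin, was the other call. It had 21473, 21003 and 23034 normalised counts with IAA, against 49944, 47766 and 64597 with DMSO. No IAA library reached the level of a DMSO library, which was also true of the median of all genes tested in this strain. The fold change was -1.31 ± 0.32 (edgeR adjusted p 0.00151). It was -0.98 ± 0.24 under TMM scaling (adjusted p 0.00738), under the limit on fold, and the DESeq2 adjusted p was 0.0515. The NSR1 window held no Rap1-type letters. Its PAC letters, shown in capitals for comparison with the genes above, lie at chrVII:807827-807853.
NSR1, chrVII:807827-807853, minus strand: gcaagggcagCTCATCGcaagaacgaa
The next lowest member, DBP2 (YNL112W), was at -0.59 (edgeR adjusted p 0.696). The smallest changes were those of DBP9 (YLR276C, -0.14), UTP22 (YGR090W, -0.16) and NOP12 (YOL041C, -0.17), and all 3 were positive under TMM scaling at 0.19, 0.17 and 0.16. Medians of the 8 role classes lay between -0.45 and -0.29. DBP10 had 19906, 17883 and 19028 normalised counts with IAA, against 22995, 22231 and 29712 with DMSO, and neither it (-0.40) nor MAK5 (-0.41) was called (edgeR adjusted p 0.784 for both). The 11 genes called under both scalings in STH1-AID cells were between -0.41 and -0.27 in RAP1-AID cells.

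In double-degron cells the share of members called lower was somewhat under that of all genes. This difference was not tested, and the count of members ranged from 5 to 18 over the libraries left out. After IAA 15 members were called lower and 0 higher by edgeR, beside 32.6% of all genes tested called lower and 3.49% called higher. With no limit on the fold 18 were lower, beside 47.9% of all genes. No member was higher at an unadjusted p under 0.05, and DESeq2 also called 15 lower and 0 higher. Of the 15, 14 were among the 26 called in STH1-AID cells, and the other was RRP14. How often calls were shared between these strains over all genes was not counted, so this overlap is not shown to be particular to the members. NSR1 was called in all 3 strains, and 33 members in none. The 3 comparisons have no library in common.

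The median member changed by -0.51, the median gene by -0.67 and the median ribosomal protein gene by -1.79 (126 of 137 called lower). Without the first DMSO replicate these medians were -0.046, -0.35 and -1.39, and over the libraries left out the member median ranged from -0.79 to -0.046. Replicates with the same number deviated together in this strain, and with the replicate number as a block 3 members (DBP10, MAK5 and NSR1) and 87 ribosomal protein genes were called lower, beside 8.23% of all genes. Without the first DMSO replicate 5 members were called. The calls of NSR1, DBP10, SPB4, MAK5 and IMP3 were made whichever library was left out. Under TMM scaling the median gene was at 0.01, the median member at 0.24 and the median ribosomal protein gene at -1.08. On that scale 2 members, DBP10 and NSR1, and 80 ribosomal protein genes were called lower, beside 6.57% of all genes called lower and 8.65% called higher. With no limit on the fold, 25 members were higher and 12 lower, beside 35.4% and 36.4% of all genes.

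DBP10 was again lowest, with 3434, 4283 and 3071 normalised counts in double-degron cells with IAA, against 26140, 13046 and 8743 with DMSO. The DMSO libraries differed widely among themselves, yet all lay above the IAA libraries. The median of all genes tested also lay apart, at 8.99, 9.52 and 9.21 log2 units per kb with IAA, against 10.57, 9.91 and 9.56 with DMSO. The fold change was -2.15 ± 0.33 (edgeR adjusted p 5.21e-09; 0.0109 with the replicate block). MAK5 had 2525, 3318 and 2414 with IAA, against 14770, 8200 and 4816 with DMSO (-1.75 ± 0.33, edgeR adjusted p 1.35e-06; 0.0434 with the block). NSR1 had 9508, 10158 and 4704 with IAA, against 52252, 31966 and 13122 with DMSO. Its fold change of -2.0 ± 0.33 (edgeR adjusted p 4.3e-08, and 0.0163 with the block) was below its values of -1.15 and -1.31 in the single strains. With spike-in scaling neither difference was called. Under TMM scaling its difference from STH1-AID was -0.9999 (edgeR adjusted p under 0.05), just under the limit on fold.

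RRP14 had 3230, 4492 and 3272 normalised counts with IAA, against 16024, 8450 and 6080 with DMSO. The fold change was -1.47 ± 0.32 (edgeR adjusted p 4.06e-05), but the adjusted p was 0.0816 with the replicate block. SPB4 (-1.46) and IMP3 (-1.5) likewise had an adjusted p of 0.0818 and 0.0833 with the block. At the other end RRP9 had 5730, 7184 and 4671 with IAA, against 8952, 5458 and 3801 with DMSO, and these groups overlapped (-0.05, edgeR adjusted p 0.909). NUG1 (-0.09) and NOP16 (YER002W, -0.10) were next, and all 3 were above the typical gene under TMM scaling, at 0.67, 0.68 and 0.65. Without the first DMSO replicate all 3 were positive with spike-in scaling too, at 0.34, 0.42 and 0.37. By role, 5 of 11 helicases (median -0.92), 4 of 16 small-subunit processome genes and 3 of 17 large-subunit genes were called lower. So were 2 of the 3 remaining nucleolar factors and 1 of 3 methyltransferases, and no snoRNP or GTPase gene was. The share of all genes called lower was 32.6%.

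**Figure D4:**
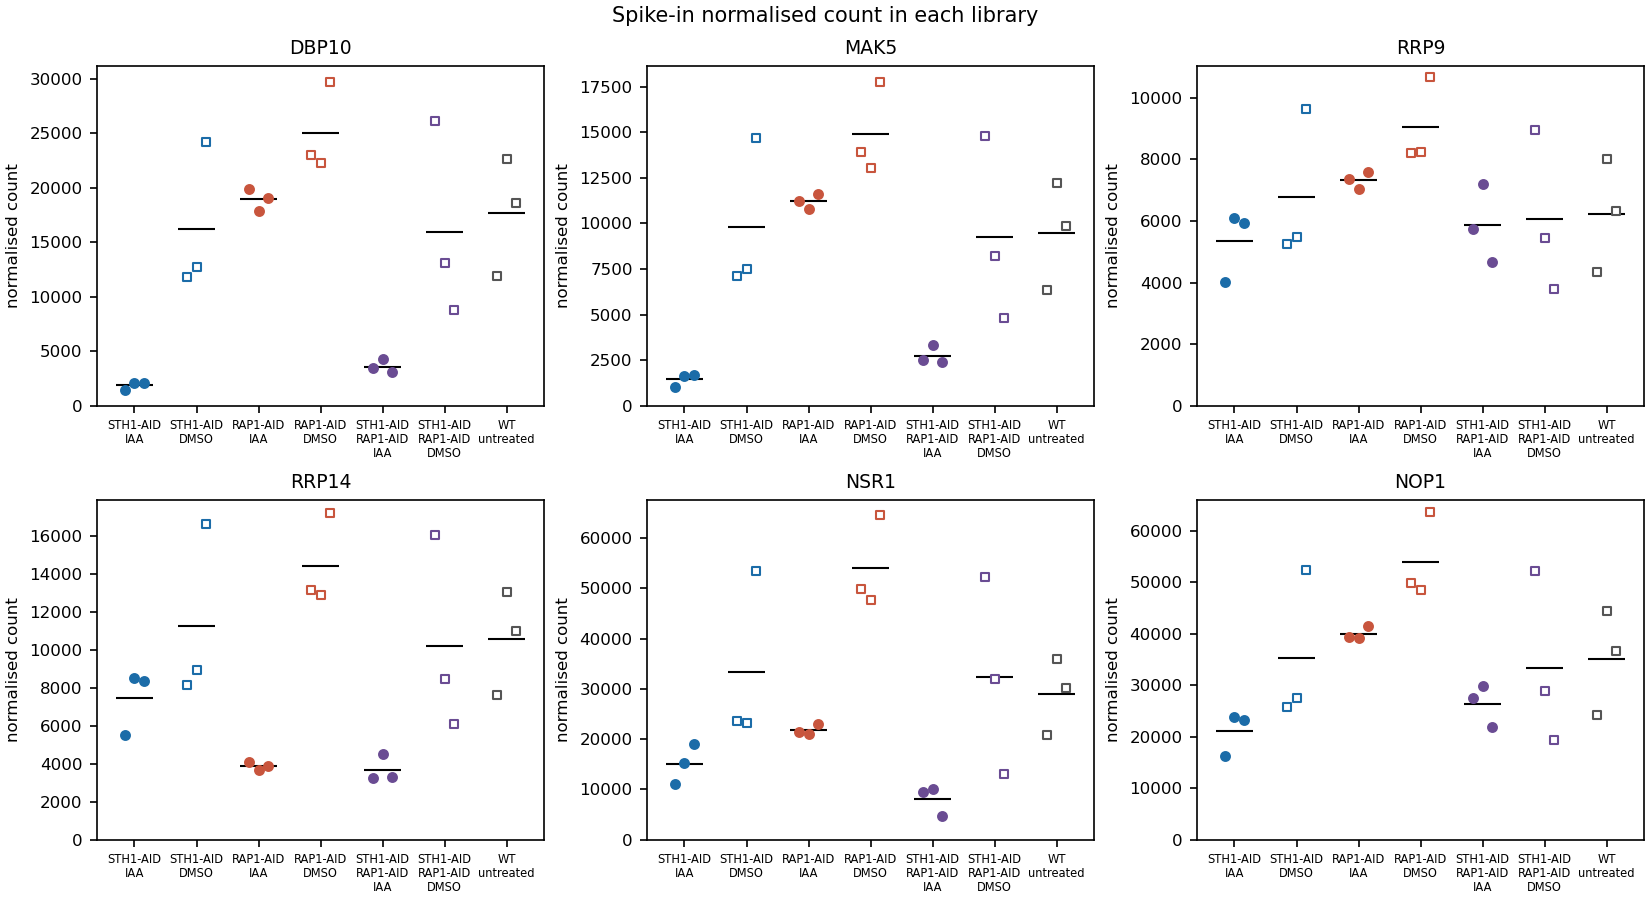
Normalised counts (vertical axes) of DBP10, MAK5, RRP9, RRP14, NSR1 and NOP1 in each of the 21 libraries, IAA beside DMSO for each strain and WT last, with a line at each group mean. DBP10 and MAK5 are low with IAA in both strains with STH1-AID, RRP14 is low with IAA in both strains with RAP1-AID, and RRP9 overlaps between IAA and DMSO in the strains with STH1-AID.

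The IAA effects were also compared between strains, with the same libraries as in the comparisons above. Taking the IAA effect of RAP1-AID and subtracting that of STH1-AID, 15 members were called positive and 1 negative, beside 32.3% and 6.27% of all genes tested, so the positive share of members was 15 of 60. The median difference was 0.54 for members and 0.54 for all genes, but -0.93 for ribosomal protein genes, of which 59 were called negative and 0 positive (0 positive at an unadjusted p under 0.05). Without the third DMSO replicate of STH1-AID the member median was 0.15. DBP10 (2.71 ± 0.46, edgeR adjusted p 1.64e-07) and MAK5 (2.35 ± 0.46, adjusted p 4.74e-06) had the largest differences. The 15 included the 11 genes called under both scalings in STH1-AID cells, which had been grouped by their values in the same STH1-AID libraries, so that this overlap is no separate evidence. The negative call was RRP14 (-1.30 ± 0.45, edgeR adjusted p 0.0135). Under TMM scaling 11 members were called positive and 1 negative, beside 17.3% and 15% of all genes. The 11 were the same genes and the negative call was again RRP14, while the median was -0.04 for members and -1.5 for ribosomal protein genes. In this comparison the median member thus lay with the median gene, at 0.54 each with spike-in scaling, while the ribosomal protein genes lay below both.

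The IAA effect of the double degron less that of STH1-AID was called for 0 members by edgeR in either direction, beside 2.56% of all genes tested. At an unadjusted p under 0.05, 8 members were positive and 0 negative, and DESeq2 called 0. The median was 0.42 for members, 0.25 for all genes and -0.80 for ribosomal protein genes (9 called negative). Without the first DMSO replicate of the double degron 13 members were called positive and the member median was 0.90. Without the third DMSO replicate of STH1-AID 1 was called negative and the member median was 0.018. The median of all genes moved too, to 0.58 and -0.072 in these fits. Shares of all genes are not given for them or for the unadjusted counts. Under TMM scaling DBP3 was called positive (1.08) and RRP14 negative (-1.06), beside 8.81% of all genes called in either direction.

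Set against that of RAP1-AID, the effect of the double degron was called negative for 3 members, DBP10, MAK5 and IMP3, beside 9.79% of all genes tested. The values were -1.75 ± 0.46 for DBP10 (edgeR adjusted p 0.00549), -1.34 ± 0.45 for MAK5 (adjusted p 0.0349) and -1.22 ± 0.44 for IMP3 (adjusted p 0.0471). Under TMM scaling DBP10 was the only one called, beside 6.4% of all genes, and it was the only one called with the replicate block. The count was 0 without the first DMSO replicate of the double degron, 10 without the third and 5 without the second IAA replicate of that strain, and it was 1 without the first or the third IAA replicate of that strain, without the first or second DMSO replicate of RAP1-AID and without any of the IAA replicates of RAP1-AID. The median was -0.18 for members (0.32 without the first DMSO replicate of the double degron) and -0.36 for all genes (-0.047 without that library). It was 0.17 for ribosomal protein genes, none of which was called. At an unadjusted p under 0.05, 2 ribosomal protein genes were positive and 1 negative.

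**Figure D5:**
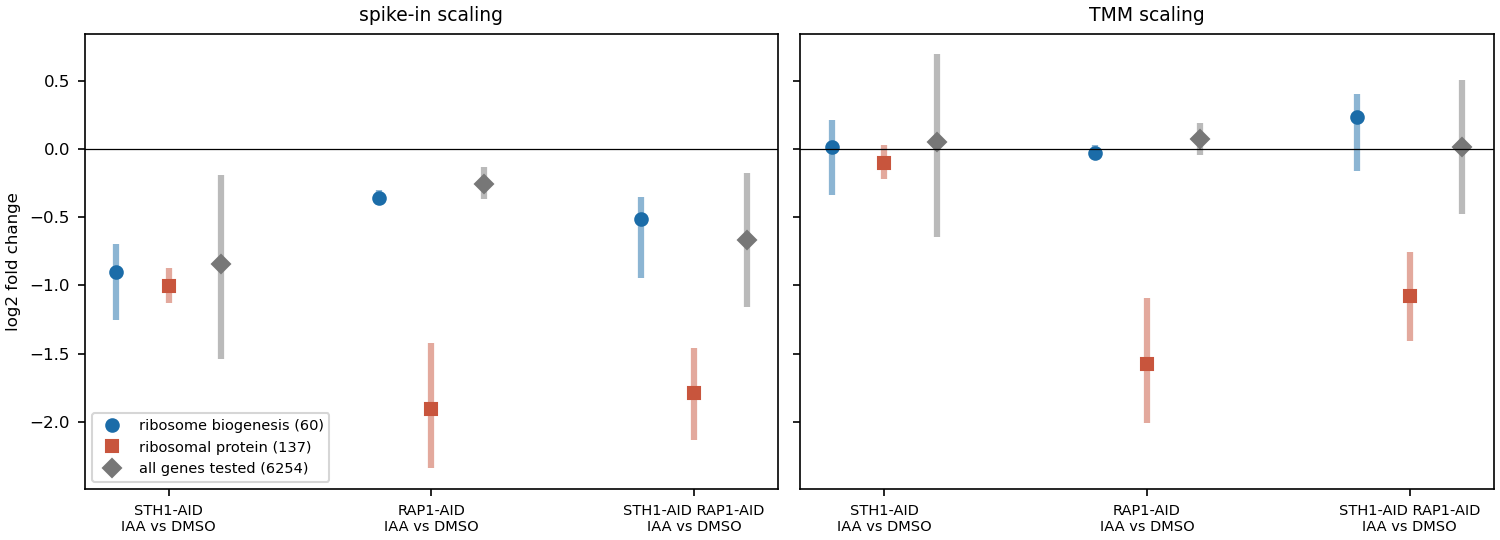
Median log2 fold change (IAA over DMSO, vertical axes) of the 60 members, the 137 ribosomal protein genes and all 6254 genes tested in each strain, with bars from the lower to the upper quartile, under spike-in scaling (left) and TMM scaling (right). With spike-in scaling members lie near all genes in every strain (-0.90, -0.36 and -0.51 in STH1-AID, RAP1-AID and double-degron cells), and ribosomal protein genes lie at -1.0, -1.91 and -1.79.

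Without IAA no member of the degron strains was called against WT in the fit of all libraries, though some in RAP1-AID cells missed only the limit on fold. By edgeR 0 of 60 were called in STH1-AID with DMSO, beside 1.39% of all genes tested called in either direction, 0 in RAP1-AID beside 12.8%, and 0 in the double degron beside 6.92%. At an unadjusted p under 0.05 the members numbered 0, 34 (all higher) and 0 in these strains, and DESeq2 called 0 in each. With no limit on the fold, some members were higher in RAP1-AID cells at an edgeR adjusted p under 0.05. They were 3 small-subunit processome genes and 1 gene each of the methyltransferases, the other nucleolar factors, the helicases and the GTPases. Under TMM scaling they were 3 processome genes, 2 helicases and 1 GTPase. Shares of all genes at these limits are not given, and the median gene itself lay at 0.52 in RAP1-AID cells with spike-in scaling. The counts are therefore not shown to be particular to the members. The median member was at 0.05 in STH1-AID cells (range -0.12 to 0.21). For RAP1-AID it was 0.65 (range 0.45 to 0.98), and for the double degron 0.02 (range -0.24 to 0.28). The median gene was at 0.11, 0.52 and 0.01 in these strains, and the median ribosomal protein gene at 0.07, 0.25 and -0.33. Over the libraries left out the member median ranged from -0.34 to 0.27 for STH1-AID, from 0.43 to 0.86 for RAP1-AID and from -0.47 to 0.31 for the double degron. In RAP1-AID cells 10 members were called higher without the second WT replicate, and 1 without the first or the second RAP1-AID replicate. Under TMM scaling the RAP1-AID median was 0.12. NSR1 had normalised counts of 49944, 47766 and 64597 in RAP1-AID with DMSO, against 20742, 36006 and 30085 in WT.

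Other genes of the pathway followed the members only in part. The further biogenesis factors had a lower median than the members in both strains with STH1-AID. In STH1-AID cells the share of these factors called lower was above that of all genes under both scalings. Of 87 further ribosome biogenesis factors, 56 were called lower in STH1-AID cells (median -1.19; 24 under TMM scaling), 4 in RAP1-AID (median -0.34; 3 under TMM scaling) and 32 in double-degron cells (median -0.84; 9 under TMM scaling). The shares of all genes called lower were 42.7%, 4.09% and 32.6% in these comparisons, and 15.4%, 3.07% and 6.57% under TMM scaling. The 4 called in RAP1-AID cells were TSR1 (-1.76) and NOB1 (-1.67), factors of late small-subunit maturation, BUD22 (-1.33) and the helicase gene ECM16 (-1.19). Among 16 genes of RNA polymerase I and its initiation factors, 7, 0 and 5 were called lower in STH1-AID, RAP1-AID and double-degron cells, with medians of -0.94, -0.34 and -0.79. Under TMM scaling the counts were 1, 0 and 1. Among 10 RNA polymerase III genes the counts were 6, 0 and 4, and 3, 0 and 2 under TMM scaling. With the replicate number as a block in the double degron, 9 further biogenesis factors, 2 RNA polymerase I genes and 2 RNA polymerase III genes were called lower, beside 8.23% of all genes. In RAP1-AID cells 1 of the RNA polymerase I genes and 0 of the RNA polymerase III genes were lower at an unadjusted p under 0.05.

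Among 10 regulators of ribosome genes, 3, 0 and 2 were called lower in the same strains, beside 42.7%, 4.09% and 32.6% of all genes. None was called in any of the strains under TMM scaling or, in the double degron, with the replicate block. In STH1-AID cells the 3 were MAF1 (-1.87), a repressor of RNA polymerase III, FHL1 (-1.40), a factor of ribosomal protein promoters, and DOT6 (-1.02), a repressor that binds PAC letters. TOD6, the paralog of DOT6, was at -0.99, and STB3, which binds RRPE letters, at -0.40. SFP1, an activator of both gene families, had fold changes of -0.43, -0.66 and -0.64 across STH1-AID, RAP1-AID and double-degron cells, with an edgeR adjusted p of 0.221, 0.422 and 0.071. In RAP1-AID cells 1 regulator was lower at an unadjusted p under 0.05. Whether the levels of these regulators bear on the members was not tested.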

How the data were processed

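The authors trimmed the reads (cutadapt 1.9.1), aligned them to the S. cerevisiae and the S. pombe genome separately (BWA 0.5.9-r16), filtered the alignments and counted fragments per gene by strand with featureCounts (Subread 1.5.1). The deposited values are raw counts per gene, in 1 table per species. Library totals are in the report, and intervals from counting alone were not used, since replicates of every group differed beyond sampling noise (chi-square divided by its degrees of freedom was 2.89 to 94.0), so none was a repeat deposit.

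S. pombe size factors (median of ratios over 4876 genes) scaled the S. cerevisiae counts, and 6254 genes passed edgeR's filter on low counts. edgeR 4.0.16 (R 4.3.3) fitted all 21 libraries at once, with 1 coefficient per group, and quasi-likelihood tests gave 9 comparisons adjusted by the Benjamini-Hochberg method. The settings tried were TMM scaling, DESeq2 1.42.0, no filter, only the groups compared, the replicate number as a block (alone and with TMM), and each replicate left out. In the double degron (STH1-AID RAP1-AID) the deviations of same-numbered IAA and DMSO libraries correlated (r = 0.52, 0.70 and 0.66 across genes), so numbers were taken as pairs there. In STH1-AID (0.098, 0.22 and 0.21) and RAP1-AID (0.14, 0.091 and 0.13) they were not. Simulated counts were used to test the scripts.

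Members and lists were chosen with earlier results of these data known. Members named with values are the 3 lowest and 3 highest in each IAA comparison, the most abundant of each role and the 2 largest called differences between strains. Others named were chosen after their values were seen. Of the 6692 gene identifiers, 6008 were in the RefSeq R64 annotation used for windows and sequences, 6000 with the same start and end. Sequences and figures were made with Python 3.11.15, pandas 2.3.3, Biopython 1.88 and matplotlib 3.10.9.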

Additional observations from a re-analysis of the deposited data

Results flagged for a closer look

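The response to IAA of 2 helicase genes differed between strains by the test of the difference itself (edgeR, adjusted over all genes). For DBP10 the log2 fold change of RAP1-AID less that of STH1-AID was 2.71, and that of the double degron less that of RAP1-AID was -1.75. For MAK5 these differences were 2.35 and -1.34. The 2 genes were picked as the largest called differences among members. Of all genes tested, 32.3% were called positive in the first comparison and 9.79% negative in the second. DBP10 lost its call in the second of these comparisons without the first DMSO replicate of the double degron (-1.20). MAK5 lost its call in that comparison without that library (-0.83), under TMM scaling and with the replicate block (edgeR adjusted p 0.118). It also lost its call without any of 7 other libraries, with values between -1.37 and -1.25. The first DMSO replicate of the double degron and the third of STH1-AID have the highest S. cerevisiae to S. pombe ratios of their groups (18.1 and 22.2), and their part in these differences was not tested further.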

How the results depend on the processing

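Among results for single members, 43 of 43 values kept their direction and side of the threshold with no filter on low counts and with only the groups compared, and 41 of 43 with DESeq2. TMM scaling, which moves the median gene by over 0.1, had the largest effect. Under it the members called lower numbered 11, 1 and 2 in STH1-AID, RAP1-AID and double-degron cells, and the member medians were 0.016, -0.031 and 0.24. With TMM and the replicate block together the counts were 11, 2 and 3 and the medians -0.031, -0.098 and 0.18. With the replicate block alone 3 members were called lower in double-degron cells and 1 higher in RAP1-AID DMSO against WT. The block changed no other count of members by over 1.5 times except the differences below. DESeq2 called 1 member lower in RAP1-AID cells. The RAP1-AID DMSO median against WT was 0.12 with TMM and 0.15 with TMM and the block.

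For the RAP1-AID minus STH1-AID difference the member median was -0.042 with TMM and -0.026 with TMM and the block. For the double degron minus STH1-AID, 1 member was positive and 1 negative with TMM, and 1 and 2 with TMM and the block. For the double degron minus RAP1-AID, 1 member was negative with TMM, DESeq2, the block and TMM with the block, 5 were with only the groups compared, and the median was 0.30 with TMM and the block. Against all genes with a nonzero count, the median member lay above the median gene by 2.70 with IAA and 2.79 with DMSO in RAP1-AID cells.

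Many members changed sign with TMM, and only those named by the rule above are listed here. In STH1-AID cells, for example, all 3 box C/D and all 3 GTPase genes were positive with TMM. Some of the named members near the typical gene changed sign with TMM, and again with TMM and the block, where given second. In STH1-AID cells these were RRP9 (0.55, 0.51), NUG1 (0.49, 0.44), NOP10 (0.40, 0.35), NOP1 (0.18, 0.14), HAS1 (0.15, 0.11), NOG1 (0.22, 0.16) and RLP24 (0.019). In RAP1-AID cells they were DBP9 (0.19, 0.12), UTP22 (0.17, 0.10), NOP12 (0.16, 0.091), NOP14 (0.0014) and NOG1 (0.041). In double-degron cells they were RRP9 (0.67, 0.61), NUG1 (0.68, 0.62), NOP16 (0.65, 0.60), NOP1 (0.42, 0.36), NOP2 (0.068, 0.0080), RLP24 (0.33, 0.28), NOP14 (0.17, 0.13), NOP10 (0.55, 0.50), HAS1 (0.46, 0.41) and NOG1 (0.47, 0.41). With the block alone RRP9 (0.020), NUG1 (0.029) and NOP16 (0.0085) were positive there.

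Leaving out 1 library at a time, the members called lower ranged from 15 to 35 in STH1-AID cells and from 5 to 18 in double-degron cells, and stayed at 2 in RAP1-AID cells. Members called higher in RAP1-AID DMSO against WT ranged from 0 to 10. For RAP1-AID minus STH1-AID the median ranged from 0.15 to 0.73. For the double degron minus STH1-AID, 0 to 13 members were positive and 0 to 1 negative. For the double degron minus RAP1-AID, 0 to 10 were negative and the median ranged from -0.47 to 0.32. Among the members named by rule, the ranges in double-degron cells crossed 0 for RRP9 (-0.30 to 0.34), NUG1 (-0.38 to 0.42), NOP16 (-0.37 to 0.37) and NOP1 (-0.62 to 0.14). They also crossed 0 for RLP24 (-0.75 to 0.064), NOP10 (-0.47 to 0.25), HAS1 (-0.60 to 0.19) and NOG1 (-0.61 to 0.19). The median of all genes moved between these fits too, and the shares of all genes called in them are not given. Beyond the scaling and samples used in each, the cause of these shifts was not tested.

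With 3 replicates whose spike-in ratio varied widely within a group, small changes could not be called with spike-in scaling, and p-values measure the spread between the labelled biological replicates only.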
